A study of Homo sapiens with 12 samples.

Results

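Alpha-tubulins and the proteins that fold and monitor tubulin were followed as 10 genes, listed by symbol, of 60617 genes in the deposited table. Where a symbol had 2 rows, as TBCE did, the row with the higher mean was taken. They were the alpha-tubulin genes TUBA1A, TUBA1B, TUBA1C and TUBA4A, the tubulin folding cofactor genes TBCA, TBCB, TBCC, TBCD and TBCE, and TTC5, whose product senses surplus tubulin. The 12 sequenced libraries came from PANC-1 cells, a line established from a human pancreatic ductal adenocarcinoma, and all carry the labels 48 h and wild type. They formed groups of 3: transfection with an irrelevant siRNA against luciferase (siGL3) or with one against MYOF (siMYOF), and exposure to DMSO as vehicle or to WJ460 at 50 nM, a compound that the study used to target myoferlin, the MYOF product. The study's methods count the 48 h of a knockdown from the wash after transfection, and they describe separately seeded cultures for it. For the DMSO and WJ460 groups no source used here names separate cultures, and their p-values may measure technical spread only. The main tests share 1 estimate of spread over all 12 libraries. The p-values of the siRNA and batch comparisons thus rest partly on the DMSO and WJ460 libraries as well. By the batch label, siGL3 replicate 1 and siMYOF replicate 1 were early and all 10 remaining libraries late, so the 2 early siRNA libraries are given apart from the 4 late ones throughout.

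Microtubules are built from dimers of alpha- and beta-tubulin. New tubulin chains are passed by prefoldin to the CCT chaperonin, and the released monomers go to the cofactors, TBCB and TBCE on the alpha side and TBCA and TBCD on the beta side, which with TBCC assemble the dimer. Cells also read their own pool of soluble dimer: when it is large, TTC5 binds the first residues of a tubulin chain leaving the ribosome and, through SCAPER and the CCR4-NOT deadenylase, the message being translated is degraded.

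The first codons of the messages are shown because they encode the stretch of nascent chain that TTC5 reads. The 45 first coding bases are printed from the GRCh38 transcripts of the GENCODE annotation, with the first 4 codons in capitals. TUBA4A is set beside TUBB and TUBB6, a pair of beta-tubulins that moved in opposite directions below.
TUBA4A start: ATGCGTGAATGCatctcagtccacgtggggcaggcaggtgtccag
TUBB start: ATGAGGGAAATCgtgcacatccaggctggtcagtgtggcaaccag
TUBB6 start: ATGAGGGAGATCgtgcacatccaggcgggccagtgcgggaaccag
TUBA4A carried TGC, a cysteine codon, at codon 4, and all 9 beta-tubulin genes looked up carried an isoleucine codon there. The coding ends of TUBA1C and TUBA4A, of 33 bases with the stop codon, are shown because they differ in the codon before the stop. Capitals mark the last 4 codons, stop included.
TUBA1C end: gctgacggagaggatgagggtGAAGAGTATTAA
TUBA4A end: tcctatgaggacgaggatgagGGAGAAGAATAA
The last codon before the stop encoded tyrosine in TUBA1C, the residue that tubulin carboxypeptidases remove and TTL adds back. TUBA4A ended in GAA, a glutamate codon.

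The alpha-tubulin genes other than TUBA4A lie together on the long arm of chromosome 12, within 146819 bases of GRCh38. TUBA1B (ENSG00000123416) spans chr12:49127782-49131397 and TUBA1A (ENSG00000167552) chr12:49184686-49189080, both on the minus strand. TUBA1C (ENSG00000167553) spans chr12:49188736-49274600 on the plus strand and overlaps TUBA1A by 345 bases. Their coding sequences were 95.9% to 97.2% identical, against 84.4% to 85.7% for each of them with TUBA4A (ENSG00000127824, chr2:219249710-219277902, minus). Of all 150-base windows of the reference transcript, 8.01% in TUBA1A, 19.1% in TUBA1B and 7.22% in TUBA1C also occurred in another of the 3, so a read of that length from them matches another gene as well. Reads were sequenced in pairs, and the share of pairs that match another gene was not counted. No such window was shared for TUBA4A, TBCA, TBCB, TBCC, TBCD or TTC5. The library kit was stranded, but the sources used here do not state that strand was used in counting, which bears on the overlap of TUBA1A and TUBA1C.

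TBCA (ENSG00000171530) lies at chr5:77691166-77868780, TBCB (ENSG00000105254) at chr19:36114289-36125947, TBCC (ENSG00000124659) at chr6:42744498-42746103, TBCD (ENSG00000141556) at chr17:82752042-82945914 and TTC5 (ENSG00000136319) at chr14:20256558-20305960. TBCE had 2 rows, and the one with the higher mean (ENSG00000285053, chr1:235328570-235448952) was kept. The annotation describes that row as a readthrough over GGPS1 and TBCE, and 85.2% of its windows were shared with other genes, so its value cannot be told apart from those of GGPS1 and TBCE. The other row (ENSG00000284770) held between 2.22 and 28.2 normalised read counts, that is, reads scaled by a size factor for each library.

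The 250 bases upstream of TUBA1B, and of 1 of the 3 starts listed for TUBA1C, are shown because both genes moved together below. They come from RefSeq on GRCh38.p14. Capitals mark CCAAT and GGGCGG, the CCAAT box and the GC box, searched on both strands, and runs in which copies overlap are joined.
TUBA1B promoter, chr12:49131396-49131645, minus strand: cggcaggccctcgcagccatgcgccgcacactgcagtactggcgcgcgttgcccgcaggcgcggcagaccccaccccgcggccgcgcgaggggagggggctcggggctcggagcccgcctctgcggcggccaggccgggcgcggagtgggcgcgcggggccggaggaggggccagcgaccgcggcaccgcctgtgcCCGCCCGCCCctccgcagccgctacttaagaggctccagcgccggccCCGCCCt
TUBA1C promoter, RefSeq start of the reference transcript, chr12:49264832-49265081, plus strand: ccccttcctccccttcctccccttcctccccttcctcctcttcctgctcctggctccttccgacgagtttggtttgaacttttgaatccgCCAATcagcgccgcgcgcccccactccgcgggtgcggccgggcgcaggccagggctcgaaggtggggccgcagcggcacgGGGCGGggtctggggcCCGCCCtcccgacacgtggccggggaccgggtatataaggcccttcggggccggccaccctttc
The TUBA1B window had 3 GC boxes and no CCAAT box, and this TUBA1C window had 2 GC boxes and 1 CCAAT box. The other 2 TUBA1C windows had 0 GC boxes and 1 CCAAT box each. Of 35116 promoter windows of this length, 42.6% held a GC box and 32.0% a CCAAT box, and TATAAA, held by 10.7%, was in neither window shown. Only these exact strings were searched, so variants of them were not counted.

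Library depth ran from 12335147 to 19847210 recovered reads, the 2 early libraries being the deepest, and between 19144 and 23060 genes had a read. Differences are given in log2(normalised read count + 1), and a gene passed where its limma p-value, adjusted over 14720 tested genes, was under 0.05. MYOF, the targeted gene, had 12786, 20168 and 17823 normalised read counts with siGL3 and 3470, 2372 and 2003 with siMYOF, a difference of -2.71 on the log2 scale (SE 0.23, limma adjusted p = 2.41e-05). The depletion was smaller in the early pair (-1.88) than in the late libraries (-3.12), a contrast of 1.24 between batches. The early pair has no replicates, so the spread of its effect was not measured. With WJ460 the MYOF difference was 0.16 (adjusted p = 0.603). The summed level of 6 ductal epithelial markers was between 11245 and 38934 normalised read counts in every library, carried mainly by KRT8 and KRT18. KRT7, also on that list, averaged 4.30 and was too low for testing, and CDH1 averaged 8.46. Of 5 fibroblast genes, DCN, LUM and COL1A2 were at 0 in all libraries, and PDGFRB was found in each, at 13.6 to 76.8 normalised read counts.

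The order of levels is best seen in the DMSO libraries, per kilobase of reference transcript. TUBA1B stood first, at 24521 ± 680.0 normalised read counts per kilobase (SD, n = 3), followed by TUBA1C at 5052 ± 87.9. TBCA, which holds beta-tubulin after its release from the chaperonin, came next at 2801 ± 62.7, then TBCB, which binds alpha-tubulin, at 2201 ± 110.3. TUBA1A had 1150 ± 57.9, TBCD 255.4 ± 10.2, TBCC 184.6 ± 9.13, TTC5 64.5 ± 7.62, TBCE 20.5 ± 5.07 and TUBA4A 16.0 ± 1.78. TBCE and TUBA4A were the only neighbours in this order whose libraries overlapped. Of 6 other alpha-tubulin genes in the table, none reached the mean of 5 normalised read counts needed for testing.

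With WJ460, all 4 alpha-tubulin genes followed here fell, TBCA, TBCB and TBCD rose, and TBCC, TBCE and TTC5 fell. All 10 genes thus passed the test against DMSO, 3 higher and 7 lower, in a comparison in which 52.9% of 14720 tested genes passed, 27.3% higher and 25.6% lower. For TBCE this holds for its readthrough row, and its other row did not pass. The ranges of the 2 groups did not overlap for 9 of the 10, and the same held for 62.2% of all tested genes.

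TUBA1B, the main alpha-tubulin message here, had 41030, 39835 and 38820 normalised read counts with DMSO and 18340, 17053 and 17275 with WJ460. TUBA1C had 14533, 14047 and 14204 with DMSO and 7341, 5869 and 5739 with WJ460. In both genes all WJ460 libraries lay well below all DMSO libraries. The log2 difference was -1.18 for TUBA1B (SE 0.07, adjusted p = 6.04e-10) and -1.18 for TUBA1C (SE 0.10, adjusted p = 6.42e-08).

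TUBA1A, an isotype known for its abundance in developing neurons, had 2002, 1815 and 1951 normalised read counts with DMSO and 1732, 894.1 and 921.6 with WJ460. Replicate 1 of WJ460 stood close to the DMSO libraries and the other 2 far below them. The fitted difference was -0.77 (SE 0.22, adjusted p = 0.0191), and it was -1.08 without that library (adjusted p = 3.52e-09). TUBA4A, which ends without the terminal tyrosine codon, had 35.4, 28.7 and 34.4 with DMSO and 15.0, 6.26 and 12.3 with WJ460, with no overlap and a difference of -1.54 (SE 0.29, adjusted p = 1.87e-04).

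TBCA had 1899, 1826 and 1829 normalised read counts with DMSO and 3113, 3345 and 3600 with WJ460. Every WJ460 library stood above every DMSO library, and the difference was 0.85 (SE 0.07, adjusted p = 1.64e-08). TBCB had 2047, 2224 and 2245 against 2927, 2623 and 2840, likewise without overlap, and rose by 0.36 (SE 0.06, adjusted p = 7.75e-05). TBCD, which binds beta-tubulin and forms the platform for dimer assembly, had 1767, 1910 and 1809 against 2022, 2058 and 2067. Its rise of 0.16 (SE 0.07, adjusted p = 0.0406) was the smallest of the 10 differences.

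TBCC, the GTPase activator that releases the finished dimer, had 300.3, 308.9 and 280.3 normalised read counts with DMSO and 227.2, 232.7 and 231.2 with WJ460. The groups did not overlap, and it fell by 0.36 (SE 0.10, adjusted p = 0.00683). TBCE, the alpha-tubulin cofactor in its readthrough row, had 65.0, 82.7 and 50.2 against 52.5, 42.8 and 26.9, and these ranges overlapped. It fell by 0.70 (SE 0.23, adjusted p = 0.0151), while the other TBCE row did not pass (-0.32, SE 0.45, adjusted p = 0.568). TTC5 had 325.9, 263.6 and 326.5 with DMSO and 161.8, 200.3 and 181.9 with WJ460, did not overlap, and fell by 0.75 (SE 0.11, adjusted p = 1.69e-05).

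**Figure D1:**
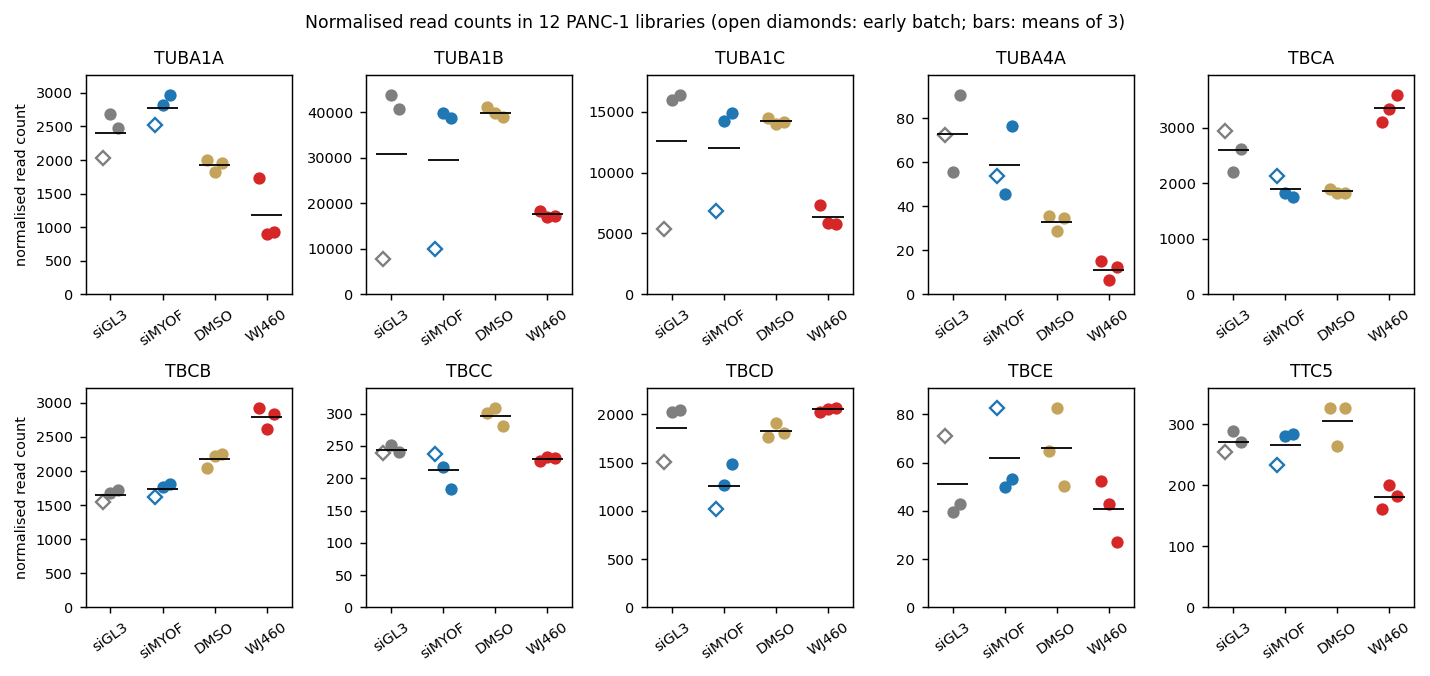
Normalised read counts of the 10 genes (vertical axes, each from 0) in the 3 libraries of each of 4 groups (horizontal axes), with bars at the group means. WJ460 libraries lie below DMSO libraries for the alpha-tubulins and TTC5 and above them for TBCA and TBCB, while the early siRNA libraries (open diamonds) sit at 7701 and 9854 for TUBA1B.

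The balance within the set shifted. The 4 alpha-tubulins summed to 57600, 55726 and 55009 normalised read counts with DMSO and to 27427, 23822 and 23948 with WJ460, a ratio of means of 0.447. TBCA stood at 32.8 to 33.3 normalised read counts per 1000 of alpha-tubulin with DMSO and at 113.5 to 150.3 with WJ460. The 5 cofactors together averaged 110.8 ± 4.60 per 1000 with DMSO and 339.5 ± 31.9 with WJ460 (SD, n = 3). Within the alpha-tubulins the makeup moved little, since TUBA1B was 71.1% ± 0.472 of the sum with DMSO and 70.2% ± 2.90 with WJ460. Per kilobase, the order with WJ460 became TUBA1B (10790 ± 422.7), TBCA (5072 ± 368.5), TBCB (2833 ± 158.5) and TUBA1C (2237 ± 315.2), with no overlap between neighbours (SD, n = 3).

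The calls for TBCA, TBCB, TBCC, TTC5, TUBA1C and TUBA4A held in all 24 alternatives run, whereas TBCD lost its call in 8 of them, which included leaving out DMSO replicate 1 or 3 or WJ460 replicate 2 or 3 (adjusted p from 0.0861 to 0.140), and had a difference of 0.01 when libraries were scaled to total reads (adjusted p = 0.957). TUBA1B lost it without the batch term (adjusted p = 0.209), TUBA1A in a fit of only these 2 groups (adjusted p = 0.0968) and without WJ460 replicate 3 (adjusted p = 0.0524), and TBCE without the batch term (adjusted p = 0.104), without DMSO replicate 2 (-0.53, adjusted p = 0.0962) or without WJ460 replicate 3 (-0.44, adjusted p = 0.111). The summed fibroblast markers, nearly all PDGFRB, were also lower, at 13.6 to 16.8 with WJ460 against 25.6 to 39.7 with DMSO (PDGFRB -1.16, adjusted p = 3.18e-04). Of 5 tested ductal markers, KRT8 (0.57) and KRT18 (0.32) rose, KRT19 (-0.65) and CDH1 (-2.17) fell and EPCAM did not pass, the sum being 30214 to 38934 against 25196 to 26121. The part of these markers in the results was not tested. In bulk libraries, fewer cells of a type and less RNA per cell cannot be told apart.

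The knockdown of MYOF gave another picture. Against siGL3, TBCA and TBCD fell, no gene of the 10 rose, and 8 did not pass, in a comparison in which 53.9% of all tested genes passed, 28.0% higher and 25.9% lower. The ranges did not overlap for TBCA, TBCC and TBCD, 3 of the 10, against 40.9% of all tested genes. Within the late libraries, 2 against 2, they did not overlap for 8 of the 10, against 70.9%.

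TBCD had 1503, 2022 and 2048 normalised read counts with siGL3 and 1015, 1271 and 1480 with siMYOF, the first of each being the early library. Each siMYOF library was below the siGL3 libraries of its batch, and all 3 were below all siGL3 libraries. The difference was -0.57 (SE 0.07, adjusted p = 6.89e-07), and each batch on its own gave -0.57. TBCA had 2950, 2199 and 2624 with siGL3 and 2138, 1818 and 1751 with siMYOF, again without overlap. It fell by 0.44 (SE 0.07, adjusted p = 3.51e-05), and the early pair and the late libraries gave -0.46 and -0.43. TBCA thus rose with WJ460 and fell with siMYOF. TBCD moved in the same directions, but its rise with WJ460 was small and was not called in every alternative.

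TUBA1B had 7701, 43855 and 40686 normalised read counts with siGL3 and 9854, 39836 and 38736 with siMYOF. The spread within each group came from the early library, and within the late batch the siMYOF libraries were slightly lower. The fitted difference was 0.05 (SE 0.07, adjusted p = 0.601), made up of 0.36 between the early libraries and -0.10 between the late ones. TUBA1C had 5390, 16021 and 16441 against 6885, 14264 and 14945, with a difference of 0.02 (SE 0.10, adjusted p = 0.904), or 0.35 early and -0.15 late. With scaling to total reads the fitted signs turned, at -0.06 for TUBA1B and -0.09 for TUBA1C, neither passing. The contrast between early and late knockdown effects was 0.46 for TUBA1B and 0.51 for TUBA1C. Since the early pair has no replicates, the test of this contrast takes its spread from the late libraries only. None of the 10 genes passed in this contrast, which 0.265% of all tested genes did, 0.217% higher and 0.0476% lower.

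TUBA1A had 2034, 2682 and 2476 normalised read counts with siGL3 and 2527, 2826 and 2977 with siMYOF. It was higher with siMYOF in each batch, while the pooled ranges overlapped, and the difference was 0.22 (SE 0.22, adjusted p = 0.449). That SE rested partly on WJ460 replicate 1, since without this library the same difference had an adjusted p of 0.00566, and in a fit of the siRNA groups alone one of 0.0259. TUBA4A had 72.6, 55.3 and 90.8 against 53.6, 45.5 and 76.6, with overlap and a difference of -0.32 (SE 0.29, adjusted p = 0.375).

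TBCB, with 1551 to 1720 normalised read counts under siGL3 and 1622 to 1809 under siMYOF, differed by 0.07 (SE 0.06, adjusted p = 0.353). TBCC had 239.3, 250.7 and 240.5 against 237.7, 217.4 and 183.1, a difference of -0.20 (SE 0.10, adjusted p = 0.111) that passed only with scaling to total reads (-0.31, adjusted p = 0.0155). TTC5 had 254.7, 287.9 and 270.5 against 232.6, 281.1 and 282.9, with overlap and a difference of -0.03 (SE 0.11, adjusted p = 0.822). TBCE had 71.2, 39.5 and 43.0 against 82.6, 50.1 and 53.3 in its readthrough row, higher with siMYOF within each batch, with a difference of 0.28 (SE 0.23, adjusted p = 0.318). The other TBCE row differed by -0.55 (SE 0.45, adjusted p = 0.320), with -0.85 early and -0.40 late. A p above the threshold does not show that these levels were equal.

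**Figure D2:**
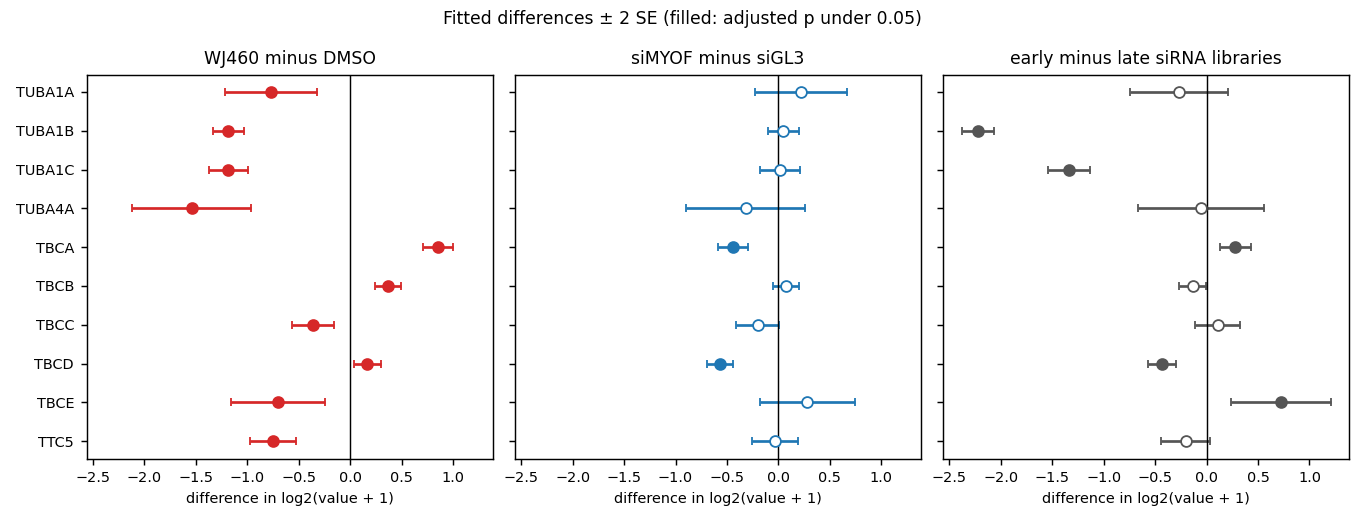
Fitted differences in log2(value + 1) of the 10 genes (horizontal axes) for WJ460 minus DMSO, siMYOF minus siGL3 and early minus late siRNA libraries, with bars of 2 SE and filled points where the limma adjusted p was under 0.05. The 4 alpha-tubulins lie left of 0 with WJ460 and around 0 with siMYOF, and TUBA1B lies at -2.23 between batches.

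The 2 effects were also set against each other in the same fit, as siMYOF effect minus WJ460 effect. Of the 10 genes, 6 were higher, 3 lower and 1, TBCC, not called (0.16, adjusted p = 0.392), where 48.2% of all tested genes passed, 24.2% higher and 24.0% lower. All 4 alpha-tubulins were among the higher, at 0.99 for TUBA1A (SE 0.32, adjusted p = 0.0312), 1.23 for TUBA1B (SE 0.10, adjusted p = 3.38e-08), 1.20 for TUBA1C (SE 0.14, adjusted p = 2.93e-06) and 1.23 for TUBA4A (SE 0.41, adjusted p = 0.0183). TTC5 (0.71, SE 0.16) and TBCE in its readthrough row (0.99, SE 0.33) were higher as well. The other TBCE row had the opposite sign and did not pass (-0.23, SE 0.64, adjusted p = 0.798). TBCA (-1.29, SE 0.10), TBCD (-0.73, SE 0.09) and TBCB (-0.29, SE 0.09) were lower. The calls for TBCA, TBCD and TTC5 held in every alternative, while that for TUBA1A was lost in 11, with adjusted p-values between 0.0526 and 0.0902 there, among them leaving out any 1 siGL3 or siMYOF library, DMSO replicate 1 or 3, or WJ460 replicate 3. That for TUBA4A was lost without siGL3 replicate 2 (adjusted p = 0.0606), siMYOF replicate 3 (0.0664) or WJ460 replicate 2 (0.0525), and that for TBCE without DMSO replicate 2 (0.0612) or WJ460 replicate 3 (0.0551). Without the batch term TUBA1B (adjusted p = 0.372), TUBA1C (0.141), TBCB (0.0731), TUBA4A (0.0557) and TBCE (0.117) lost theirs.

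The control groups, siGL3 and DMSO, differed in transfection and in exposure to DMSO. In addition, siGL3 replicate 1 was early and all DMSO libraries were late. Of the 10 genes, 2 were higher with siGL3, 2 lower and 6 not called, against 32.1% called among all tested genes, 16.1% higher and 16.0% lower. With the early siGL3 library pooled with the late ones, the ranges of 5 of the 10 did not overlap, against 31.3% of all tested genes. TUBA4A was higher by 1.12 (SE 0.31, adjusted p = 0.00926), its 3 siGL3 libraries all above the 3 DMSO libraries, and TBCA by 0.38 (SE 0.08, adjusted p = 8.18e-04). TBCB had a difference of -0.35 (SE 0.07, adjusted p = 5.63e-04) and TBCC of -0.32 (SE 0.11, adjusted p = 0.0342). These values share the siGL3 and DMSO libraries with the comparisons above. The TUBA4A call was lost without siGL3 replicate 3 (0.89, adjusted p = 0.0811) and the TBCC call in 9 alternatives, among them without siGL3 replicate 1 or 3, siMYOF replicate 1 or DMSO replicate 1 or 2 (adjusted p from 0.0710 to 0.112). TUBA1A passed in a fit of these 2 groups alone (0.42, adjusted p = 1.83e-04) and without WJ460 replicate 1 (0.40, adjusted p = 1.76e-04). It also passed with the replicate number as a block (0.57, adjusted p = 0.0312). Nothing shows that these numbers match between siRNA and DMSO libraries. TUBA1C passed in the fit of 2 groups (0.19, adjusted p = 0.00712). The readthrough row of TBCE passed there (-0.64, adjusted p = 0.0357), with scaling to total reads (-0.68, adjusted p = 0.0452) and by edgeR (-0.64, adjusted p = 0.0413). It also passed without DMSO replicate 3 (-0.80, adjusted p = 0.0345) or WJ460 replicate 1 (-0.62, adjusted p = 0.0409) or 3 (-0.62, adjusted p = 0.0315). In the main fit the other TBCE row did not pass (-0.14, adjusted p = 0.852).

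The largest difference of any of the 10 genes lay between batches, not treatments. TUBA1B had 7701 and 9854 normalised read counts in the early siRNA libraries and between 38736 and 43855 in the 4 late ones, a difference of -2.23 (SE 0.08, adjusted p = 6.80e-14). TUBA1C had 5390 and 6885 against 14264 to 16441, a difference of -1.34 (SE 0.10, adjusted p = 4.33e-08). TUBA1A, on the same stretch of chromosome 12, had 2034 and 2527 against 2476 to 2977, with overlap and a difference of -0.27 (SE 0.24, adjusted p = 0.395) that passed without WJ460 replicate 1 (adjusted p = 0.00246). TUBA4A differed by -0.05 (adjusted p = 0.908), and by 0.08 with scaling to total reads (adjusted p = 0.862). In all, 2 of the 10 were higher in the early libraries and 3 lower, where 45.0% of all tested genes passed, 21.2% higher and 23.8% lower. The ranges of 5 did not overlap, those of TUBA1B, TUBA1C, TBCB, TBCE and TTC5, against 32.4% of all tested genes.

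Among the cofactors, TBCD was lower in the early libraries (-0.44, SE 0.07, adjusted p = 5.14e-05), and TBCA (0.28, SE 0.08, adjusted p = 0.00542) and TBCE (0.72, SE 0.24, adjusted p = 0.0219) were higher. TBCB (-0.14), TBCC (0.11) and TTC5 (-0.20) did not pass. Without siGL3 replicate 1 the calls for TBCA (adjusted p = 0.0803) and TBCE (adjusted p = 0.182) were lost, and without siMYOF replicate 1 that for TBCE (adjusted p = 0.102). All DMSO and WJ460 libraries carry the late label, and the labels do not say what else differed between the batches.

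Ratios within a library do not depend on its scaling. TUBA1B stood at 1.43 times TUBA1C in both early libraries, at 2.47 to 2.84 times in the 7 late libraries without WJ460 and at 2.50 to 3.01 times with WJ460. TUBA1A made up 13.4% and 13.1% of the summed alpha-tubulins in the early libraries and 3.26% to 6.31% in the late ones. TBCA stood at 194.1 and 110.7 normalised read counts per 1000 of alpha-tubulin in the early libraries and at 30.9 to 44.0 in the late siRNA libraries. The low sum of alpha-tubulins was therefore found both with WJ460 and in the early batch, but the makeup differed, with TUBA1B and TUBA1C lowered about equally by WJ460 and unequally between the batches.

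**Figure D3:**
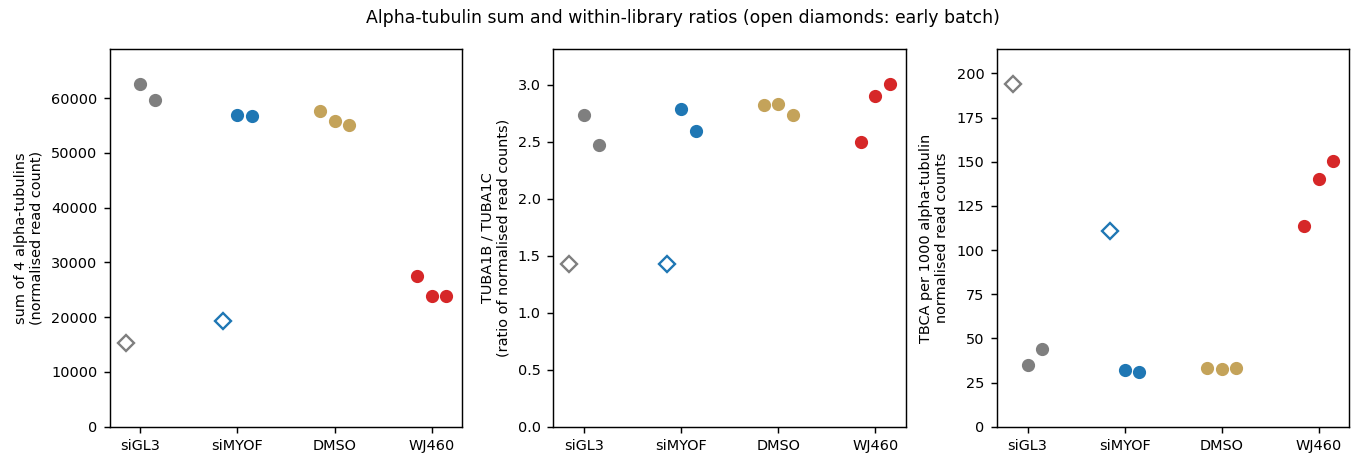
Sum of the 4 alpha-tubulins in normalised read counts, ratio of TUBA1B to TUBA1C, and TBCA per 1000 normalised read counts of alpha-tubulin (vertical axes, each from 0) in the 12 libraries by group (horizontal axes), with early libraries as open diamonds. WJ460 libraries have a low sum (23822 to 27427) with a TUBA1B to TUBA1C ratio of 2.50 to 3.01, and early libraries a low sum (15198 and 19319) with a ratio of 1.43.

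For the lists that follow, the share of all tested genes that passed was 52.9% with WJ460, 27.3% higher and 25.6% lower, and 53.9% with siMYOF, 28.0% higher and 25.9% lower. They are described by counts and medians, with no test of a list. The first concern the steps before the cofactors. With WJ460, of the 8 CCT subunits, 7 rose and 1 did not pass, with a median difference of 0.48, where the median of all tested genes was 0.00. They included CCT8 (0.81, SE 0.07), CCT6A (0.56, SE 0.06), CCT4 (0.56, SE 0.06) and CCT5 (0.47, SE 0.05). All 6 prefoldin subunits rose, with a median of 0.55, PFDN2 leading by p-value (0.92, SE 0.09) before PFDN5 (0.66, SE 0.07), PFDN4 (0.72, SE 0.10) and PFDN6 (0.44, SE 0.06). With siMYOF, 3 CCT subunits rose, 1 fell and 4 did not pass (median 0.14), among them CCT8 (0.57, SE 0.07), CCT2 (0.34, SE 0.06), CCT5 (0.24, SE 0.05) and CCT7 (-0.25, SE 0.06). Of the prefoldin subunits, PFDN2 (0.50, SE 0.09) and PFDN1 (0.42, SE 0.07) rose, PFDN6 fell (-0.24, SE 0.06) and 3 did not pass. Between batches, all 8 CCT subunits were lower in the early libraries (median -0.38). Of the 6 prefoldin subunits, 4 were higher and 2 did not pass (median 0.20). In that comparison 45.0% of all tested genes passed, 21.2% higher and 23.8% lower.

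The beta-tubulins are the partners of the alpha-tubulins in the dimer. With WJ460, of 7 tested genes, 5 fell, TUBB6 rose (0.36, SE 0.08) and 1 did not pass (median -1.07), with TUBB at -1.83 (SE 0.08), TUBB4A at -2.52 (SE 0.18), TUBB4B at -1.07 (SE 0.09) and TUBB2B at -1.28 (SE 0.19). With siMYOF, TUBB6 (0.83, SE 0.08), TUBB2A (0.68, SE 0.15) and TUBB3 (1.07, SE 0.26) rose, TUBB4A fell (-0.93, SE 0.18) and 3 did not pass.

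The machinery downstream of TTC5 was mixed. With WJ460, of 10 tested genes of SCAPER and CCR4-NOT, 5 fell, 2 rose and 3 did not pass (median -0.19). The deadenylase subunits CNOT8 (-0.90, SE 0.09) and CNOT6 (-0.65, SE 0.08) fell, and the scaffold-associated CNOT3 (0.53, SE 0.07) and CNOT11 (0.40, SE 0.07) rose. With siMYOF, 4 rose, 2 fell and 4 did not pass (median 0.07), among them CNOT8 (0.34, SE 0.09), CNOT9 (0.19, SE 0.06), CNOT10 (-0.52, SE 0.08) and CNOT11 (-0.26, SE 0.07). TTC5 itself differed by -0.03 with siMYOF, which did not pass, and by -0.75 with WJ460. The siMYOF effect minus the WJ460 effect was thus 0.71 (SE 0.16, limma adjusted p = 0.00101).

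The relatives and partners of the cofactors measured were ARL2, TBCEL, TBCCD1 and RP2. With siMYOF, ARL2, the small GTPase that works with TBCD, fell (-0.66, SE 0.13), as did TBCEL (-0.48, SE 0.11), while RP2 (0.37, SE 0.07) and TBCCD1 (0.30, SE 0.11) rose. With WJ460, RP2 fell (-0.23, SE 0.07) and the other 3 did not pass.

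Enzymes that modify tubulin after folding numbered 19 among the tested genes. With siMYOF, 10 fell, 3 rose and 6 did not pass (median -0.56, against 0.01 for all tested genes), where 25.9% of all tested genes fell and 28.0% rose. The alpha-tubulin deacetylase gene HDAC6 had a mean of 1146 ± 280.7 normalised read counts with siGL3 and 376.5 ± 9.91 with siMYOF (SD, n = 3), and it fell by 1.58 (SE 0.09). TTL, the tubulin tyrosine ligase gene, fell by 0.91 (SE 0.06), and the deglutamylase genes AGTPBP1 and AGBL5 fell by 0.98 (SE 0.12) and 0.56 (SE 0.07). With WJ460, 1 rose, 5 fell and 13 did not pass (median -0.08). HDAC6 rose by 0.46 (SE 0.09), and VASH1, a tubulin carboxypeptidase gene (-1.23, SE 0.18), AGBL5 (-0.47, SE 0.07) and the glutamylase gene TTLL7 (-0.39, SE 0.11) fell.

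Genes of the gamma-tubulin ring, which nucleates microtubules, numbered 11. With WJ460, 3 rose, 2 fell and 6 did not pass (median 0.14), a share called below the 52.9% of all tested genes, including TUBGCP6 (1.01, SE 0.14), MZT1 (0.34, SE 0.09), TUBG1 (-0.50, SE 0.08) and TUBGCP4 (-0.24, SE 0.10). With siMYOF, 3 rose, 5 fell and 3 did not pass (median -0.21), including TUBGCP4 (0.65, SE 0.10), MZT2A (-0.78, SE 0.17), MZT1 (-0.64, SE 0.09) and TUBG1 (-0.45, SE 0.08).

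Stathmins and microtubule-associated proteins, which bind dimers or polymer, made 22 tested genes. With WJ460, 4 rose, 8 fell and 10 did not pass (median -0.21), a share called near the 52.9% of all tested genes. The end-binding gene MAPRE2 (-1.03, SE 0.10), MAP1A (-1.09, SE 0.14) and CKAP5, a microtubule polymerase gene (-0.70, SE 0.08), fell, and KATNA1, which encodes the severing subunit of katanin, rose (0.99, SE 0.09). With siMYOF, 11 rose, 3 fell and 8 did not pass (median 0.17). MAPRE1 (0.58, SE 0.06), MAP7 (0.88, SE 0.12) and CLIP1 (0.54, SE 0.07) rose, and MAP1A fell (-0.97, SE 0.14).

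**Figure D4:**
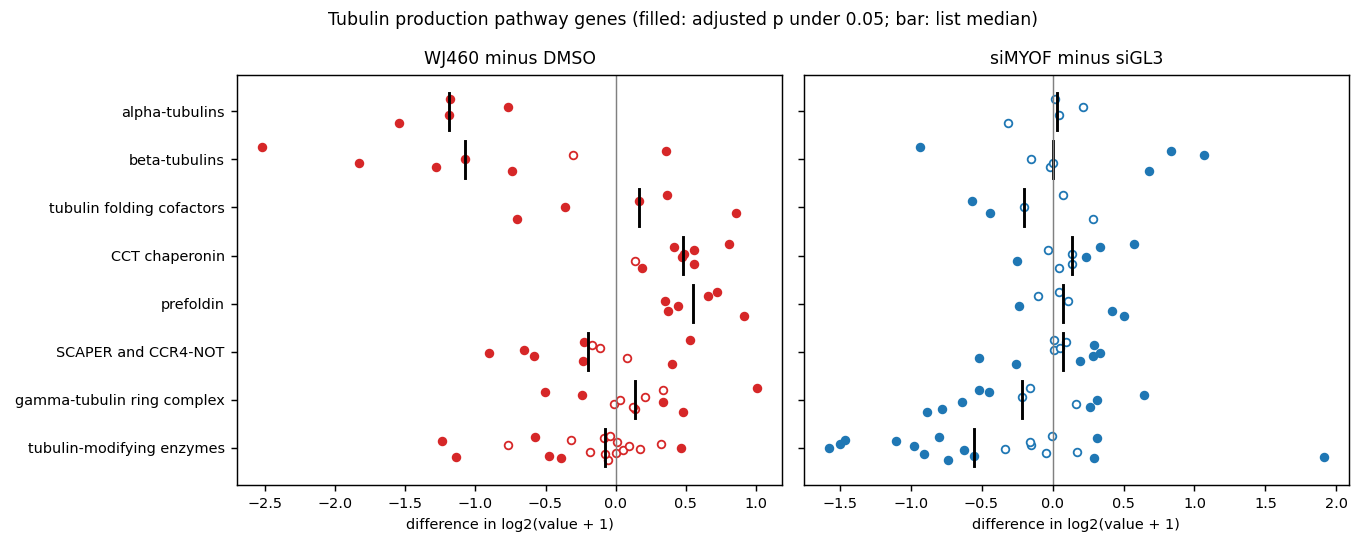
Fitted differences in log2(value + 1) (horizontal axes) of the tested genes of 8 lists (vertical axis) for WJ460 minus DMSO and siMYOF minus siGL3, with filled points where the limma adjusted p was under 0.05 and bars at list medians. With WJ460 the alpha-tubulins (median -1.18) and beta-tubulins (-1.07) lie left of 0 and CCT (0.48) and prefoldin (0.55) right of it, and with siMYOF the modifying enzymes have a median of -0.56.

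The genes whose pattern over the 12 libraries was most like that of TUBA1B, by Pearson's r of log2(value + 1), were SAMHD1 (0.992), KIAA1549 (0.981), KCTD14 (0.977), RAB8A (0.973) and ATF7 (0.972). The 12 points share the batches and the treatments. SAMHD1 was -1.51 between early and late siRNA libraries and -0.84 with WJ460. For the other members the single nearest gene was RETREG2 for TUBA1A (0.977), HECTD3 for TUBA1C (0.976), SPG21 for TUBA4A (0.963), PWP1 for TBCA (0.989), TRMT1 for TBCB (0.972), MOCS3 for TBCC (0.978), HGH1 for TBCD (0.995), AC015712.6 for TBCE (0.906) and PAX2 for TTC5 (0.967). Among the 10 genes themselves, r was 0.93 for TUBA1B with TUBA1C, 0.89 for TUBA1A with TUBA4A and 0.35 for TUBA1A with TUBA1B.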

How the data were processed

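RNA of 12 PANC-1 libraries was sequenced by the authors from a stranded mRNA kit. The submitters' processing notes name STAR, Salmon and GRCh38, and the study's methods name the nf-core RNAseq pipeline and DESeq2. The deposited signal values were gene counts scaled by the authors with a size factor for each library, called normalised read counts here. Division by each library's smallest value above 0 gave whole reads for 100% of the values, within a tolerance of 0.001 reads.

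Members were matched by symbol, keeping the row with the higher mean. Of the gene identifiers, 60261 matched the GENCODE annotation. Members and gene lists were chosen with earlier results of these data known. Differences were tested with limma 3.58.1 (R 4.3.3) on log2(value + 1), the spread being trended and robust, in 1 fit of all 12 libraries with group and batch as terms, over the 14720 genes with a mean of at least 5, two-sided, at a Benjamini-Hochberg adjusted p under 0.05. Differences are on that log2 scale and understate changes of low genes. Alternatives included edgeR 4.0.16 on recovered reads, which called 8123 genes for siMYOF and 7820 for WJ460, and DESeq2 1.42.0. The pipeline was tested on simulated data. Named genes were the 10 members, MYOF, up to 4 genes of each list with the smallest p among those passing per treatment, and the nearest genes by correlation (5 for TUBA1B, 1 for each other member). Same-numbered siGL3 and siMYOF libraries deviated together (r of 0.818, 0.530 and 0.595), and by this check the numbers were taken to pair these samples. The main fit has no term for these pairs, and a block by number was run as an alternative. Late libraries with different numbers also correlated (0.493 and 0.450) and pairs across batches did so negatively (-0.676 to -0.606), so number and batch cannot be told apart here. Those of DMSO and WJ460 did not (0.0262, -0.0020 and 0.0046). Sequences were read with Biopython 1.88. Protein sequences were not used here, and some coding sequences are not reported here.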

Additional observations from a re-analysis of the deposited data

How the results depend on the processing

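Over the 10 genes and their comparisons, 1190 results were recomputed under alternatives. Of these 1101 stayed as called, 48 lost the call, 14 gained one and 27 changed sign, of which 0 passed the threshold. No called value changed sign. Without the batch term, 5140 genes in place of 7784 were called for WJ460, 4309 in place of 7093 for the difference between effects and 1331 in place of 4720 for siGL3 against DMSO, since the early libraries then widened the spread. With 1 library left out, calls ran from 6928 to 8235 for siMYOF, 6796 to 8009 for WJ460, 6490 to 7150 for the difference, 3469 to 5167 for siGL3 against DMSO and 3793 to 6993 between batches, lowest there without siGL3 replicate 1. The WJ460 to DMSO ratio of summed alpha-tubulins was 0.400 with scaling to total reads, 0.426 to 0.458 with 1 library left out, and 0.447 over 15 alpha-tubulin genes and pseudogenes. The siMYOF to siGL3 ratio was 0.967, with 0.725 to 1.24 when 1 library was left out. It was 1.27 early and 0.930 late, a split chosen after seeing the data. Scaling to total reads moved the median of all genes by -0.16 for WJ460 and -0.10 for siMYOF and gave 2636 higher and 5208 lower calls for WJ460 and 3189 and 4769 for siMYOF, and 4477 and 2471 between batches.

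For siMYOF, the values that changed sign were those of TUBA1B (-0.0611 with scaling to total reads, -0.105 with late libraries only, -0.105 to 0.123 with 1 library left out), TUBA1C (-0.0939, -0.153 and -0.153 to 0.0833 likewise, and -0.000185 by edgeR), TTC5 (0.0152 with late libraries only, -0.0728 to 0.0152 with 1 left out) and TBCB (-0.0382 with scaling to total reads). For siGL3 against DMSO they were TUBA1B (-0.736 without the batch term, -0.0604 with scaling to total reads, -0.00746 with TMM, -0.0874 to 0.0828 with 1 left out) and TUBA1C (-0.343 without the batch term). Between batches they were TUBA4A (0.0755 with scaling to total reads, -0.215 to 0.118 with 1 left out) and TBCC (-0.0373 to 0.252 with 1 left out), and for the early minus late knockdown effect TBCD (-0.0427 with TMM, -0.00662 by edgeR).

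With the replicate number as a block, 8146 genes were called for siMYOF, 7970 for WJ460, 7259 for the difference and 4763 for siGL3 against DMSO. Of 40 results of the 10 genes the block changed 1 call, that of TUBA1A between siGL3 and DMSO. Only for that comparison were the numbers shared across all groups. Nothing shows that they match between siRNA libraries and DMSO or WJ460 libraries. In the other comparisons the blocks stayed within the siRNA libraries and within the DMSO and WJ460 libraries. Low levels limit TUBA4A, TBCE and the second TBCE row, and 3 libraries a group limit the rest.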
